A study of Mus musculus with 2 samples.

Results

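The genes described here are 9 that pancreatic beta cells use to sense glucose and to couple it to insulin release, namely Slc2a2, G6pc2, Kcnj11, Abcc8, Slc30a8, Ptprn, Glp1r, Ffar1 and Ucn3, out of 22911 genes that could be named on the arrays. They were chosen by name, and their probes were found by matching the RefSeq accession of each non-control probe to the gene, which gave 13 probes of 1 spot each. In a beta cell, glucose enters through a transporter and is metabolised, the resulting ATP closes a potassium channel, the membrane depolarises, and calcium entry releases insulin from dense-core granules that store it as zinc crystals. Incretin peptides and fatty acids act on G protein-coupled receptors that amplify this release, and the peptide urocortin 3 leaves the granule together with insulin. Beta cells lie in the islets, which make up a small part of the gland beside the enzyme-secreting acinar cells.

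The study asked what the metalloendopeptidase nardilysin (Nrdc) does in the exocrine pancreas. The Nrdc-cKO group was Ptf1a-Cre; Nrdcflox/flox and the other group was WT, in both cases whole pancreas of C57BL/6 males aged 5 weeks, with 1 Cy3-labelled 1-colour Agilent array per group. Ptf1a, which drives Cre here, is expressed in the pancreatic progenitors that give rise to acinar, duct and islet cells and later in acinar cells, and the labels say neither where recombination took place, nor whether the WT mouse carried Cre or a floxed allele, nor whether an array held RNA of 1 animal or of several. With 1 array per group there was no spread between animals and no test, so each difference below describes these 2 arrays.

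A level is the log2 of the background-corrected spot signal minus the 75th percentile of the array, and a difference is Nrdc-cKO minus WT. That percentile was a signal of 227 on the Nrdc-cKO array and 70.8 on the WT array, and 60.3% of non-control spots on the Nrdc-cKO array were well above background, against 46.3% on the WT array. The lowest signal well above background was 12.6 on the Nrdc-cKO array and 11.4 on the WT array, which after scaling are levels of -4.18 for Nrdc-cKO and -2.64 for WT. A probe well above background in Nrdc-cKO alone has a lower bound in place of a difference, written as at least N-fold. The Nrdc probe had a difference of -3.21, and all 14 listed acinar markers were well above background on both arrays.

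Promoter windows from 250 bases before to 50 bases after the start site were taken from RefSeq (GRCm38.p6) for 6 of the 9 genes, Slc2a2, G6pc2, Glp1r, Ffar1, Ucn3 and Ptprn, and those of Kcnj11, Abcc8 and Slc30a8 were not used here. The windows of 4 genes are printed 5′ to 3′ on the strand of the gene, since these genes mark the range of the data: G6pc2 had the largest difference, Ucn3 the largest bound, Ffar1 a small bound and Glp1r the only difference below 0. Capitals mark a match to 1 of 5 short motifs that were searched on both strands: TAATTA (homeobox), CATCTG (E-box), TGCTGA (part of a Maf site), TGTTTAC (forkhead) and GTTAAT (part of an Hnf1 site, which can overlap the homeobox letters).
G6pc2, chr2:69210823-69211122, plus strand: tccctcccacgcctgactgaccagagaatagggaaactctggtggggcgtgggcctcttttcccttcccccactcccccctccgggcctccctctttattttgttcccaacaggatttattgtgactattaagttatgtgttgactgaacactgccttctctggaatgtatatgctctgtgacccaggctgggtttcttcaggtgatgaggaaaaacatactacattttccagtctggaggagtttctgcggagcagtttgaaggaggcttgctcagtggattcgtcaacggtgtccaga
Ucn3, chr13:3945300-3945599, minus strand: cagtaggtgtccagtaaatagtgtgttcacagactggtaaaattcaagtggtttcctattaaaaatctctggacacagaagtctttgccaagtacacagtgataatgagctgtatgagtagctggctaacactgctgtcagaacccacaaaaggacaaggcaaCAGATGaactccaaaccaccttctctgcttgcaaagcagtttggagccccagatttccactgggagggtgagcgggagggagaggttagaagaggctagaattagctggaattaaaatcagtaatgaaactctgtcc
Ffar1, chr7:30861421-30861720, minus strand: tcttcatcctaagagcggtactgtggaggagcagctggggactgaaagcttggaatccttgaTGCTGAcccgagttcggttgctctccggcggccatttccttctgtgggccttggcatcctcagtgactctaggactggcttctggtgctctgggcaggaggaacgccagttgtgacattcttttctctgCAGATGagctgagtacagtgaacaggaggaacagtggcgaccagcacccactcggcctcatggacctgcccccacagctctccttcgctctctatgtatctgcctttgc
Glp1r, chr17:30901617-30901916, plus strand: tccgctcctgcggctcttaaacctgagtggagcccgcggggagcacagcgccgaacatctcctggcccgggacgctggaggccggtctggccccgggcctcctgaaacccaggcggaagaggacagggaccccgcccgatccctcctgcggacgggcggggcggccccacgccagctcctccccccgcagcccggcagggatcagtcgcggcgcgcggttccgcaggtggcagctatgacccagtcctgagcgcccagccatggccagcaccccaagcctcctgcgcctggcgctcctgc
The Ucn3 window held the E-box letters on its opposite strand, at bases 164 to 169, and the Ffar1 window held them at bases 192 to 197 beside the Maf letters at bases 63 to 68. In the Ffar1 window the bases from the start site on begin with ATG, and whether the window covers the promoter was not tested. The windows of G6pc2, Glp1r, Slc2a2 and Ptprn held none of the 5 motifs. G6pc2 and Ptprn have 2 listed start sites each, and only the window of the one farthest 5′ was searched. Over 27025 genes with a window, 17.3% held the E-box letters, 19.2% the Maf letters, 5.32% the homeobox letters, 3.52% the forkhead letters and 7.22% the Hnf1 letters. The windows also differed in base composition, from 44.7% G and C in Ucn3 to 73.7% in Glp1r, with a median of 52.7% over all genes.

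Of the 13 probes, 10 were well above background on the Nrdc-cKO array and 4 on the WT array. Taken by gene, 4 of the 9 were measured on both arrays (G6pc2, Abcc8, Slc30a8 and Glp1r) and 5 in Nrdc-cKO alone (Slc2a2, Kcnj11, Ffar1, Ucn3 and Ptprn). Among the 16048 genes detected on either array, 17.7% were detected in Nrdc-cKO alone. In bulk tissue, more cells of a type and more RNA per cell cannot be told apart. The 3 probes without a detected signal on either array were second probes of Abcc8, Kcnj11 and Ptprn.

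**Figure D1:**
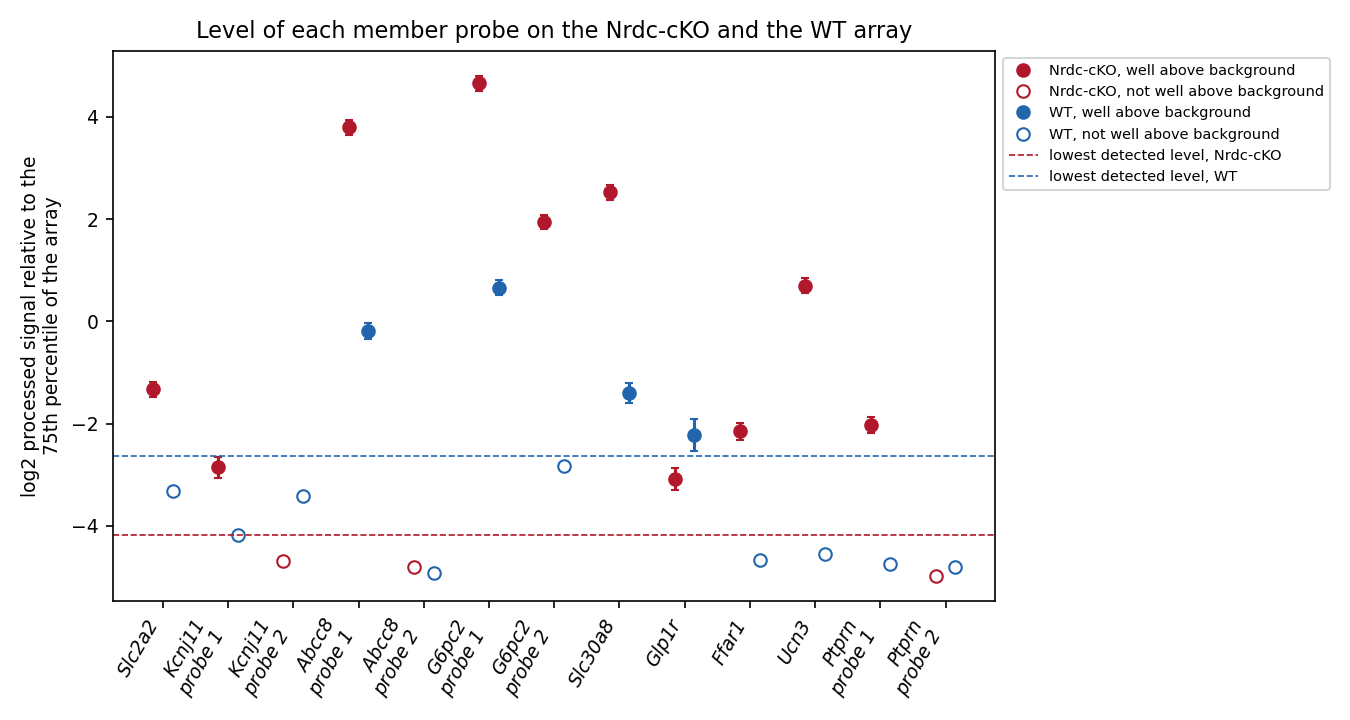
Level of each of the 13 probes on the Nrdc-cKO array (red, left of each pair) and the WT array (blue, right), as log2 processed signal relative to the 75th percentile of the array; bars are the scanner software's error of the spot, open circles are not well above background, and dashed lines are the lowest detected level of each array. The red points of G6pc2, Abcc8, Slc30a8 and Ucn3 stand well above their blue points, while Glp1r lies near both dashed lines.

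Slc2a2 encodes GLUT2, the glucose transporter through which rodent beta cells take up glucose, and which hepatocytes use too. Its probe had a signal of 90.5 ± 9.38 on the Nrdc-cKO array and 7.11 ± 2.38, not well above background, on the WT array, where ± is the error that the scanner software gives for the spot. After scaling, Slc2a2 was at least 2.47-fold higher in Nrdc-cKO. With normexp background correction and the 75th percentile, its bound was 1.12-fold. Genes made mainly by hepatocytes were mixed, with albumin (Alb) at a difference of 3.44 and the plasma protein gene Ahsg at least 361-fold higher, while the protease inhibitor gene Serpina1a stood at -2.23 (2 probes, -2.92 and -1.53), Tat stood at -0.34, and Apoa1 and Fgb were detected on neither array. Of the 9 listed hepatocyte genes, 5 were measured on both arrays, 2 of them higher by 2-fold or more and 1 lower to that extent. The other higher gene besides Alb was Ttr (2.33), which is also counted among the islet hormones below and enters both summed levels. The summed linear level of all 9 hepatocyte genes, detected or not, was 91.5 on the Nrdc-cKO array and 11.1 on the WT array. The part of such cells in the Slc2a2 signal was not tested.

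G6pc2 encodes the islet glucose-6-phosphatase catalytic subunit, which turns glucose 6-phosphate back into glucose. Its brighter probe had a signal of 5757 ± 576 on the Nrdc-cKO array and 112 ± 11.5 on the WT array. Its level was 4.66 in Nrdc-cKO and 0.66 in WT, a difference of 4.0 (16-fold), with an error of 0.21 propagated from both spots. The second G6pc2 probe had a signal of 876 ± 87.6 on the Nrdc-cKO array and 9.97 ± 2.72, not well above background, on the WT array, which makes it at least 23.9-fold higher. Both probes of G6pc2 therefore stood far above their WT signal. Of its relatives, the ubiquitous G6pc3 stood at -0.05 (2 probes, -0.14 and 0.04), and the liver enzyme gene G6pc was detected in Nrdc-cKO alone, with no bound above 1.

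Kcnj11 and Abcc8 encode Kir6.2, the pore, and SUR1, the sulfonylurea-binding subunit, of the ATP-sensitive potassium channel, which closes when ATP rises. In the RefSeq annotation they are neighbouring protein-coding genes on chromosome 7. The first Abcc8 probe had a signal of 3163 ± 316 on the Nrdc-cKO array and 62.2 ± 6.86 on the WT array. Its level was 3.80 in Nrdc-cKO and -0.19 in WT, a difference of 3.98 (15.8-fold) with a propagated error of 0.21. The second Abcc8 probe was not well above background on either array, at 8.17 ± 2.68 in Nrdc-cKO and 2.35 ± 2.35 in WT, so the Abcc8 value rests on 1 probe.

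Kcnj11 was close to background throughout. Its first probe had a signal of 31.5 ± 4.52 on the Nrdc-cKO array and 3.89 ± 3.05, not well above background, on the WT array. The scaled Nrdc-cKO level of -2.85 lay below the lowest detected WT level of -2.64, so no fold is given. The second Kcnj11 probe was not well above background, with 8.84 ± 2.76 in Nrdc-cKO and 6.67 ± 2.48 in WT. A difference between Abcc8 and Kcnj11 could not be read. The related vascular channel subunits, which smooth muscle and pericytes also make and which are counted below among the ion channel genes, had differences of 1.34 for Abcc9 (SUR2) and 1.16 for Kcnj8 (Kir6.1).

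Slc30a8 encodes ZnT8, which loads zinc into insulin granules. Its probe had a signal of 1307 ± 131 on the Nrdc-cKO array and 26.7 ± 3.65 on the WT array. Its level was 2.52 in Nrdc-cKO and -1.40 in WT, a difference of 3.93 (15.2-fold) with a propagated error of 0.24. The differences of Slc30a8, Abcc8 and G6pc2 lay within 1 such error of each other, although their WT signals ranged from 26.7 to 112. Widely expressed zinc transporters of the secretory pathway had differences of -0.17 (Slc30a5) and -0.73 (Slc30a7).

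Ptprn encodes IA-2, a transmembrane protein of dense-core granules with an inactive phosphatase domain, found in islet and other neuroendocrine cells and in neurons. The detected probe had a signal of 55.9 ± 6.29 on the Nrdc-cKO array and 2.65 ± 2.66, not well above background, on the WT array, which makes it at least 1.53-fold higher, a bound that is lost with normexp and the 75th percentile. The other Ptprn probe was not well above background, with 7.16 ± 2.83 in Nrdc-cKO and 2.54 ± 2.55 in WT. Ptprn2, which encodes the related granule protein phogrin, had a difference of -1.30, with its 2 measured probes at -1.61 and -0.98. Among 10 listed genes of nerve and Schwann cells, 5 had a measured difference, 3 of them higher by 2-fold or more, and 4 were detected in Nrdc-cKO alone. The summed linear level of all 10 was 9.94 on the Nrdc-cKO array and 7.75 on the WT array, and their part in the Ptprn signal was not tested.

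Glp1r encodes the receptor for the incretin GLP-1, which raises cAMP and amplifies insulin release. Its probe had a signal of 26.9 ± 4.13 on the Nrdc-cKO array and 15.2 ± 3.25 on the WT array. Its level was -3.08 in Nrdc-cKO and -2.22 in WT, a difference of -0.86 (1.81-fold lower) with a propagated error of 0.38. Both signals lay near the lowest detected signals, and before scaling the Nrdc-cKO signal was 1.77 times the WT signal, so the sign of the Glp1r difference comes from the scaling. It was 0.16 with loess and 1.04 with spike-in scaling. Gipr, the receptor for the other incretin, GIP, was detected in Nrdc-cKO alone and was at least 2.23-fold higher. Of the other genes of the pathway listed below, Gipr included, 13 had a bound of 2-fold or more here and 2 with either form of normexp.

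Ffar1 encodes GPR40, the receptor for long-chain fatty acids that enhances glucose-stimulated insulin release. Its probe had a signal of 51.1 ± 5.94 on the Nrdc-cKO array and 2.77 ± 2.78, not well above background, on the WT array, which makes it at least 1.40-fold higher, and with normexp and the 75th percentile no bound above 1 is left. The neighbouring gene Ffar3 on chromosome 7, a receptor for short-chain fatty acids, had a difference of -0.87, and Ffar2, of the same cluster, one of 0.61. Ffar4 (GPR120), another receptor for long-chain fatty acids, was detected in Nrdc-cKO alone, with no bound above 1.

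Ucn3 encodes urocortin 3, a peptide that mature mouse beta cells release with insulin and that acts on delta cells through a receptor encoded by Crhr2. Its probe had a signal of 368 ± 37.0 on the Nrdc-cKO array and 3.02 ± 2.80, not well above background, on the WT array. Ucn3 was at least 10.1-fold higher in Nrdc-cKO, the largest of the 4 bounds above 1 among these genes. With normexp and the 75th percentile the Ucn3 bound was 2.73-fold, and with normexp and quantile scaling 3.44-fold. Crhr2 itself went the other way, with a level of 1.54 on the Nrdc-cKO array and 3.53 on the WT array, a difference of -2.0. The other urocortin receptor gene, Crhr1, was detected in Nrdc-cKO alone, with no bound above 1.

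Counted together, 3 of the 4 genes measured on both arrays (G6pc2, Abcc8 and Slc30a8) were higher by 2-fold or more and 0 were lower to that extent, and these 3 were all over 8-fold higher. Over all 13001 genes with a measured difference, 12.8% were higher by 2-fold or more, 17.3% lower by 2-fold or more and 0.838% higher by 8-fold or more. Among those genes 31 had a larger difference than G6pc2, 32 than Abcc8 and 35 than Slc30a8, while 10215 had a larger one than Glp1r. The median of the 4 measured genes was 3.96, against -0.18 over all measured genes. Of the 5 genes detected in Nrdc-cKO alone, Ucn3 and Slc2a2 had a bound of at least 2-fold, Ptprn and Ffar1 a smaller one and Kcnj11 none. Among all 2834 genes detected there only, 22.2% had a bound of at least 2-fold.

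**Figure D2:**
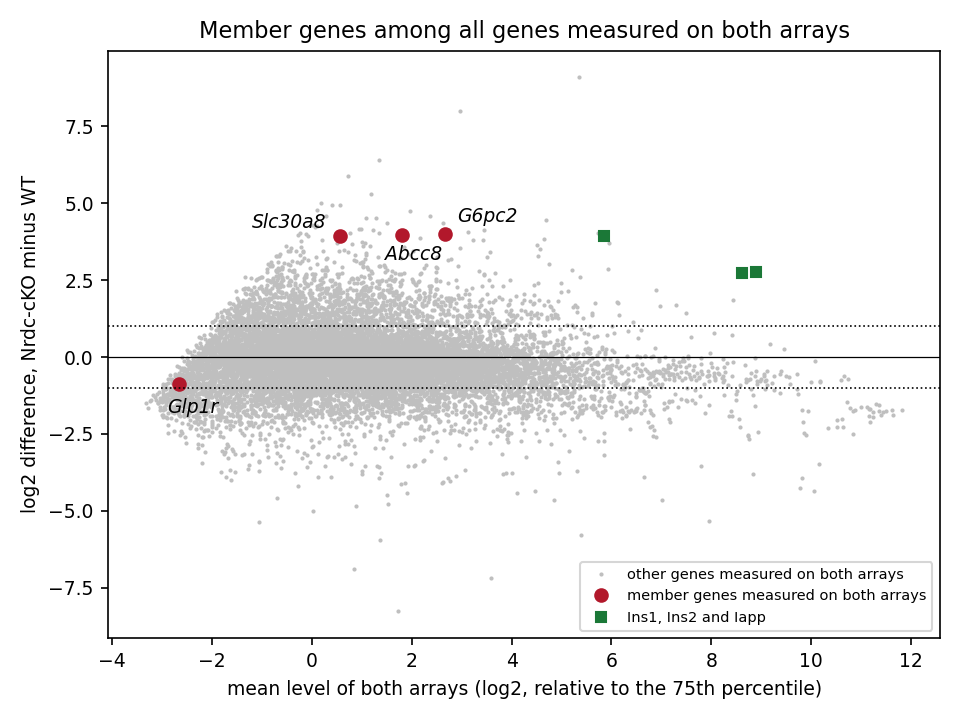
Difference (log2, Nrdc-cKO minus WT) against the mean level of both arrays for the 13001 genes measured on both, with the 4 member genes in red and Ins1, Ins2 and Iapp as green squares; dotted lines mark 2-fold. G6pc2, Abcc8 and Slc30a8 lie near 4 at the upper edge of the cloud, and Glp1r lies at -0.86 at its dim left end.

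The islet hormones were higher as a group, with all 9 listed genes higher by 2-fold or more and a median of 3.04. Pancreatic polypeptide (Ppy, 4.59), glucagon (Gcg, 4.04), islet amyloid polypeptide (Iapp, 3.93) and peptide YY (Pyy, 3.32) had the largest differences, and the insulin genes stood at 2.72 (Ins1) and 2.77 (Ins2). The order of G6pc2, Abcc8 and Slc30a8 against the insulin genes depended on the processing. The smallest gap between the 3 differences and those of Ins1 and Ins2 was 1.16 on the log2 scale here, 0.04 with quantile scaling, -0.45 with normexp and the 75th percentile and -1.05 with normexp and quantile scaling. The levels of Ins1 were 9.98 on the Nrdc-cKO array and 7.26 on the WT array, and no spot was flagged as saturated on either array. The flag marks saturated spots only, and compression of bright signals short of that was not tested.

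Other genes of the pathway were mixed. Over 6 lists with 111 genes besides the 9, 75 were measured on both arrays, of which 21 were higher by 2-fold or more and 18 lower to that extent, with a median of -0.05. Of the rest, 26 were detected in Nrdc-cKO alone, where 13 had a bound of 2-fold or more, and 10 on neither array. Over all measured genes, 12.8% were higher by 2-fold or more and 17.3% lower, which are also the shares to set beside the lists below. Over all genes detected in Nrdc-cKO alone, 22.2% had a bound of at least 2-fold. With either form of normexp, which adds an offset of 50 to each signal, 2 of the 111 genes had a bound of 2-fold or more. Most of the 13 bounds therefore depended on this processing, in which background correction and offset were not separated. The bounds given below, and that of Gipr above, have this limit. Most of these genes are also expressed outside the islet.

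In glucose metabolism, 1 of 14 measured genes was higher by 2-fold or more and 4 were lower to that extent, with a median of -0.28. Lower genes included the mitochondrial glutamate carrier Slc25a22 (-1.97, with 2 probes at -3.39 and -0.56), glutamate dehydrogenase (Glud1, -1.34) and the hexokinase Hk2 (-1.09). The hexokinase Hk1 was higher at 1.89, and Gckr, detected in Nrdc-cKO alone, was at least 8.14-fold higher.

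Of 11 measured ion channel genes, 3 were higher by 2-fold or more, Abcc9 and Kcnj8 among them, and 3 lower to that extent, with a median of -0.68. The calcium-activated cation channel Trpm4 was lower at -1.52. The calcium channel subunits Cacnb3, at least 4.66-fold higher, and Cacna1c, at least 3.76-fold higher, were detected in Nrdc-cKO alone. The other Cacna1c probes were well above background on neither array.

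Among receptors and the cAMP relay, 4 of 12 measured genes were higher by 2-fold or more and 3 lower to that extent, with a median of -0.38. The higher genes were the somatostatin receptor Sstr3 (3.26), the adrenergic receptor Adra2a (1.96), through which adrenaline inhibits insulin release, the glucagon receptor Gcgr (1.45) and the purinergic receptor P2ry1 (1.08). Beside Crhr2, the muscarinic receptor Chrm3, which acinar cells use too, was lower at -1.15. The adenylate cyclase Adcy5, detected in Nrdc-cKO alone, was at least 1.92-fold higher.

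Among granule and exocytosis genes, 6 of 21 measured were higher by 2-fold or more and 3 lower to that extent, with a median of 0.01. The synaptotagmin Syt13 (4.13), the prohormone convertase Pcsk2 (4.08) and its chaperone 7B2 (Scg5, 4.04) had differences as large as those of G6pc2 and Abcc8, and the convertase Pcsk1 stood at 1.55. The secretory GTPases Rab3d (-2.22), which sits on zymogen granules of acinar cells, and Rab3a (-1.86) were lower. The core fusion proteins syntaxin 1A (Stx1a, 0.01) and Snap25 (-0.01), chosen after their values were seen, were close to 0. The WT level of Stx1a, -2.28, lay near the lowest detected WT level of -2.64. The granule priming factor Cadps was at least 3.31-fold higher and the calcium sensor Doc2b at least 1.28-fold, both detected in Nrdc-cKO alone. The second Cadps probe was well above background on neither array.

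Among transcription factors that beta cells depend on, 3 of 10 measured were higher by 2-fold or more and 2 lower to that extent, with a median of 0.15. Nkx6-1 (2.46) and Isl1 (1.95) were higher, and Hnf4a (-1.54) was lower. Insm1, at least 10.2-fold higher, and Neurod1, at least 4.49-fold higher, were detected in Nrdc-cKO alone. The beta cell factors Pdx1 and Mafa, chosen after their values were seen, had differences of 0.15 and 0.40. The WT level of Pdx1, -2.17, lay near the lowest detected WT level of -2.64.

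Of 8 measured genes among others largely restricted to beta cells within the islet, 5 were higher by 2-fold or more and 3 lower to that extent, with a median of 1.40. The collectrin gene (listed as Tmem27, 4.24), the G protein regulator Rgs16 (3.32), Papss2 (1.61) and the granule-docking protein Sytl4 (1.46), which is also in the exocytosis list, were higher. Slc6a17 (-2.16) and the oxidoreductase Ero1lb (-2.15) were lower. The gap junction gene Gjd2 was at least 3.57-fold higher and the peptide gene Npy at least 2.95-fold, both detected in Nrdc-cKO alone.

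Markers of other cell types differed on the same arrays. All 14 measured acinar markers were lower by 2-fold or more, with a median of -1.76, led by the lipase Pnlip (-4.25), the transcription factors Ptf1a (-2.72) and Bhlha15 (-2.72) and the amylase Amy2b (-2.51), and their summed linear level was 13810 on the Nrdc-cKO array and 52237 on the WT array. The acinar median was 0.13 with spike-in scaling. The summed level of the 9 islet hormones was 2805 on the Nrdc-cKO array and 378 on the WT array. For 9 macrophage markers it was 99.0 in Nrdc-cKO and 31.2 in WT with 8 higher by 2-fold or more, for 8 fibroblast markers 773 in Nrdc-cKO and 206 in WT with all 7 measured higher, and for 8 duct markers 185 in Nrdc-cKO and 61.8 in WT with 3 higher and 2 lower. The duct sum in Nrdc-cKO was mostly Spp1, with a log2 level of 7.36 there and 4.48 in WT. The next highest duct marker in Nrdc-cKO was Krt19, at 2.92 there and 2.67 in WT. The 2 lower duct markers were Muc1 (-2.25) and Cftr (-1.59). For 7 fat cell markers the summed level was 356 in Nrdc-cKO and 11.5 in WT, and in WT 5 of them were not well above background. The 2 measured on both arrays were Fabp4 at 2.51 and Lep at -1.87. The part of these shifts in the values of the 9 genes was not tested.

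The sizes depend on the scaling. G6pc2, Abcc8 and Slc30a8 stayed over 4-fold higher in each scaling and background correction run, from 2.89 for Slc30a8 with normexp to 5.89 for G6pc2 with spike-in scaling, which put the median of all genes at 1.71. Genes given above as lower by less than 1.90 are higher with spike-in scaling. In the authors' deposited value table, used here as intensities without further scaling, the differences were 4.50 for G6pc2, 4.48 for Abcc8, 4.42 for Slc30a8 and -0.36 for Glp1r.

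**Figure D3:**
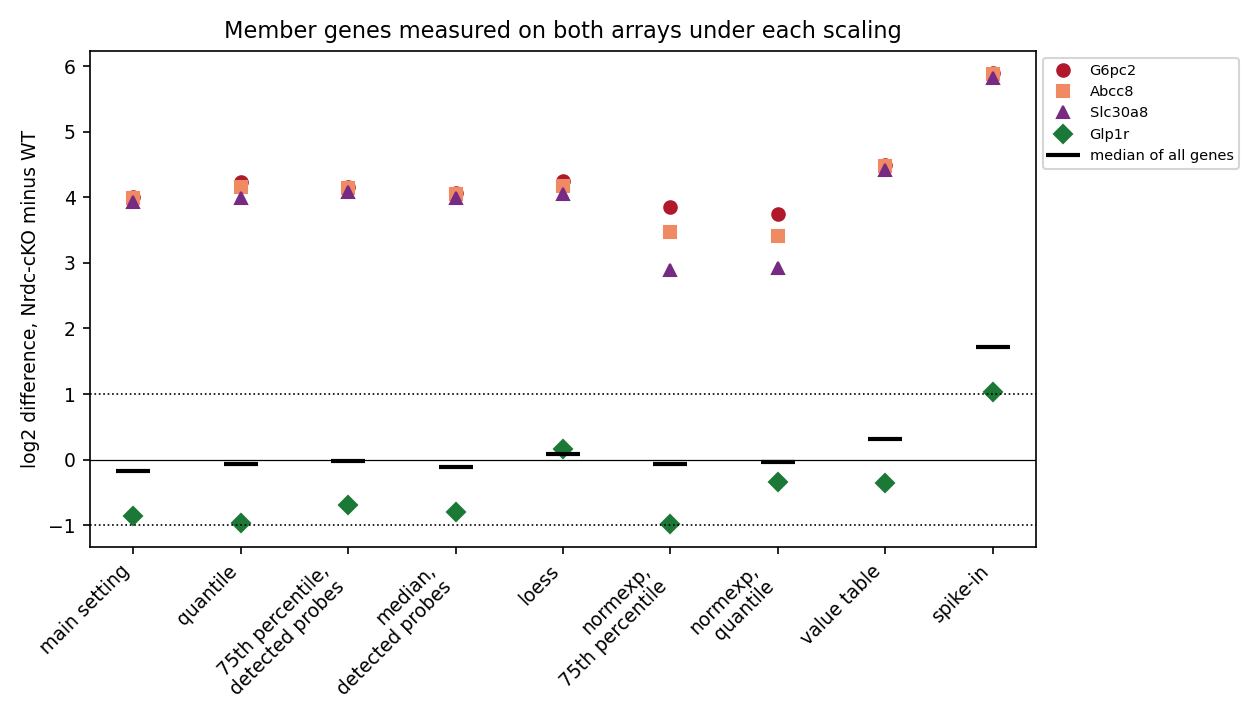
Difference (log2, Nrdc-cKO minus WT) of the 4 genes measured on both arrays under the main setting and 8 other scalings or background corrections, with black bars for the median of all genes. G6pc2, Abcc8 and Slc30a8 stay above 2.8 throughout, and Glp1r lies between -0.99 and 1.04.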

How the data were processed

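Total RNA of pancreas, labelled with Cy3, was hybridised to 1 Agilent array per group, on 1 slide and in 1 scan per the file headers. For each spot the deposited files give a linear processed intensity, corrected by the authors for background and spatial trend with Agilent Feature Extraction (12.0.3.1 per the file headers, 11.5.1.1 per the submitters' processing notes), with its error, median pixel intensities and flags. The authors' deposited value table holds this intensity times 1 constant per array, 1.92 for Nrdc-cKO and 4.37 for WT, of a basis not given in the sources used here.

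Here, spots called outliers were left out (74 on Nrdc-cKO, 80 on WT), signals were put on the log2 scale, repeat spots were averaged and the 75th percentile over 56604 probes was subtracted. A probe counted as detected with at least 0.5 of its spots well above background. A gene's difference averages those of its probes that were detected on both arrays; differences are counted past 2-fold. A bound sets the bright level against the higher of the dim array's lowest detected level and the probe's own level there. For probes with repeat spots the SD of the difference had a median of 0.032 (291 probes), which covers spotting and scanning only, and the number of arrays limits all precision.

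Accessions were matched to RefSeq names of assembly GRCm38.p6 (32993 of 56604 probes), and promoters came from the same assembly. The array design names another build, so no probe coordinates are given. The members and lists were chosen with earlier results of these data known. Named were all members, Nrdc and, per list, up to 4 genes past 2-fold in the main direction, 2 in the other and 2 bounds, with exceptions stated; some genes that this rule names are not reported here. Normexp, quantile scaling and loess used limma 3.58.1 and the rest Python 3.11.15. The step from probe to gene differences was tested on simulated data with the same detection on both arrays. The bounds were not tested in this way.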

Additional observations from a re-analysis of the deposited data

How the results depend on the processing

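No paired analysis was possible because there was 1 array per group, and no replicate could be left out. Precision is limited by the single array per group and, for Kcnj11, Glp1r, Ffar1, Ptprn and Slc2a2, by signals close to background. The WT signals of Ucn3 (3.02, not well above background) and Slc30a8 (26.7) were also low. The Slc30a8 difference of 3.93 fell below 8-fold with normexp, to 2.89 with the 75th percentile and 2.93 with quantiles. Normexp used the median pixel signal of the spots and an offset of 50, which weighs most on dim signals. The offset was not varied, so its part in the normexp values was not tested. Of the 9 genes, the main setting had 3 higher by 2-fold or more, spike-in scaling 4 and the unfiltered values, into which probes not above background enter, 7. None was lower to that extent except Glp1r, 1 gene, at a 1.5-fold threshold, against 0 in the main setting. Bounds of at least 2-fold, 2 in the main setting, numbered 5 with loess, 5 with spike-in scaling, 1 with either form of normexp and 1 at 4-fold. The median over the measured genes was 3.96, and it was 5.85 with spike-in scaling, 3.18 with normexp and the 75th percentile, 3.17 with normexp and quantiles, 4.45 with the value table and 2.05 unfiltered. Abcc8 had its lowest value, 2.05, unfiltered, since its mean then takes in the undetected probe. The count of all genes past 2-fold upward was 1666, against 10381 (spike-in), 2888 (value table), 3108 (unfiltered), 902 (bright probes), 2617 (1.5-fold) and 485 (4-fold). Downward it was 2252, against 1386 (loess), 115 (spike-in), 1146 (normexp, 75th percentile), 847 (normexp, quantile), 1074 (value table), 8013 (unfiltered), 1324 (bright probes), 4065 (1.5-fold) and 390 (4-fold). The acinar median turned to 0.13 with spike-in scaling, and that of the other beta cell genes to -0.27 with bright probes only. Other than where stated, the cause was not tested.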

Other observations

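The genomic neighbours of the 9 genes were looked at after their own values had been seen, and are given as values. Of 16 distinct protein-coding neighbours that are not among the 9, some were detected in Nrdc-cKO alone or on neither array and have no measured difference. Among those measured, the only one past 2-fold higher was Resp18, next to Ptprn on chromosome 1, at 4.51. Over all genes measured on both arrays, 12.8% were higher by 2-fold or more, a share that the measured neighbours did not exceed. Besides those given below, the other measured neighbours were Eif5a2 (-0.48), Dnah8 (-0.45), Ffar3 (-0.87), Cd22 (0.11) and Dnajb2 (0.43). Resp18 encodes a secretory granule protein of neuroendocrine cells whose name-giving domain is shared with the granule protein encoded by Ptprn. Ush1c, the neighbour of Abcc8 on the side away from Kcnj11, was detected in Nrdc-cKO alone and was at least 3.1-fold higher. On the other side of Kcnj11, Nomo1 had a difference of -1.53. The neighbours of G6pc2 and Slc30a8 that were measured, Spc25 and Med30, stood at -0.11 and -0.90.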
